A study of Mus musculus with 2 samples.

Results

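Neutrophils of injured mouse quadriceps that carried more transcripts of Retnlg, Cxcr2, Wfdc21 and Pglyrp1 than of Ccl3, Ccl4, Il23a and Gpr84 were examined 1 and 3 days after injury. There were 260 of them among 1964 neutrophils and 11362 kept cells, with 238 cells on day 1 and 22 on day 3, and they are called members here. A kept cell was one of the 7367 barcodes of day 1 or the 6640 of day 3 with the most unique molecular identifiers (UMIs, each standing for 1 captured transcript), with at least 1000 UMIs, at least 200 genes and at most 7.5% mitochondrial UMIs. A kept cell counted as a neutrophil when S100a8 and S100a9 together held at least 2% of its UMIs. A neutrophil was a member when its UMIs of the former 4 genes (the member side) outnumbered those of the latter 4 (the other side). Members were thus chosen by the measured UMIs of 10 genes, so the levels of these genes, and every other difference between members and the remaining neutrophils of the same library, are a description of the choice and no test of it.

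Neutrophils are made in the bone marrow, where their granule proteins are produced in waves, and circulate in blood until an inflamed tissue recruits them through the receptor Cxcr2, integrins and selectins. Mature circulating cells carry Retnlg and Cxcr2. Cells activated in tissue transcribe chemokines and cytokines such as Ccl3, Ccl4 and Tnf, many of them targets of the transcription factor NF-kB.

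Both libraries came from 14-week-old male wild-type C57BL/6J mice whose right quadriceps had been injected with 1.2% BaCl2, a salt that damages muscle fibres. Each library pooled the cells of 5 mice and each day had 1 library, so there are no replicates and no p-value is given. The muscle was digested, mononuclear cells were enriched on a density gradient, sorted by scatter to remove dead cells, doublets and debris, frozen in DMSO and thawed before 3′ capture. The gradient and the thawing may not retain all neutrophils, and no blood or uninjured sample was analysed here, so the likeness of the members to blood neutrophils was not measured. The level of a gene (CPM) is its UMIs, added up over all cells in a group, per 1000000 of that group's UMIs. Parentheses hold 95% intervals, by the exact Poisson method where the value is a CPM and by Clopper-Pearson where it is a share, and these take in counting error alone. A log2 ratio has 0.5 added to each count, with its interval in square brackets.

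The libraries held 74852240 UMIs on day 1 and 102565783 on day 3, and no barcode was shared between their kept cells. The deposited lists of possible barcodes differ in length between the libraries, with 737280 on day 1 and 6794880 on day 3. Whether the chemistry differed is not known, and the day and any difference between the libraries cannot be told apart. Neutrophils made up 26.8% (25.8 to 27.9) of the kept cells on day 1 and 3.37% (2.87 to 3.93) on day 3. Members made up 3.53% (3.11 to 4.0) of the kept cells on day 1 and 0.475% (0.298 to 0.719) on day 3. Of the neutrophils they made up 13.2% (11.6 to 14.8) and 14.1% (9.05 to 20.6), but 13.4% (217 of 1622) and 5.88% (7 of 119) among neutrophils with a UMI of Hdc and none of Ccr2 or Plac8, and 11.7% and 40.0% at a minimum of 2000 UMIs. The members of day 1 held 659491 UMIs, with a median of 2086.5 per cell (range 1007 to 35287), 795 genes per cell and 0.253% mitochondrial UMIs. The other neutrophils of day 1 were alike in depth, with medians of 2225 UMIs, 790 genes and 0.253%. The remaining 4927 kept cells of day 1 were deeper, with medians of 11329 UMIs and 2.45% mitochondrial UMIs. The members of day 3 held 128359 UMIs, with medians of 5005 UMIs, 1746.5 genes and 3.42% mitochondrial UMIs, against 1610.5 UMIs, 734 genes and 1.22% in the other neutrophils of that day.

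Some members went against the name of neutrophils. On day 3, 15 of the 22 had fewer than 3 UMIs of Hdc, a histamine-forming enzyme abundant in mouse neutrophils, and carried transcripts found in monocytes. On day 1, 7 of the 12 members above 5000 UMIs had at most 3 UMIs of Hdc and carried such transcripts too, and the deepest 2 carried transcripts of macrophages or fibroblasts. These 12 cells held 174137 of the members' UMIs on day 1, or 26.4%. For this reason results of day 1 that rest on them are given for all 238 members and for the 226 of at most 5000 UMIs. Results of day 3 are given for all 22 members, and for some genes also for the 7 with at least 3 UMIs of Hdc. Such cells are called here by their genes and not given another cell type name.

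Among the genes that define the member side, Retnlg encodes a resistin-like secreted protein, Cxcr2 the chemokine receptor that draws neutrophils into tissue, Wfdc21 a whey-acidic-protein-domain secreted protein and Pglyrp1 a granule protein that binds bacterial peptidoglycan. On the other side, Ccl3 and Ccl4 encode chemokines, Il23a a subunit of interleukin-23 and Gpr84 a receptor for medium-chain fatty acids. The promoters of Retnlg and Cxcr2, and for contrast that of Ccl3, are shown because the balance of these genes decides which cells are described. The sequences are those of RefSeq on GRCm38.p6, from 250 bases before to 50 after the start of the gene, 5′ to 3′ on its own strand. Capitals mark GAGGAA, the core bound by the myeloid factor PU.1, or TTGCNNAA, a form of the C/EBP site, on either strand.
Retnlg, chr16:48872358-48872657, plus strand: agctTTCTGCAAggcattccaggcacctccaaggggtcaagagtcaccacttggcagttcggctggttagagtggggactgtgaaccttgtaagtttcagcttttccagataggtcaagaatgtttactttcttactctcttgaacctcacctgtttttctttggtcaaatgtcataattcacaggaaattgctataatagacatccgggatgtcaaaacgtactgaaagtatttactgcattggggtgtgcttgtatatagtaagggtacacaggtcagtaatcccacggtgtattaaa
Cxcr2, chr1:74153744-74154043, plus strand: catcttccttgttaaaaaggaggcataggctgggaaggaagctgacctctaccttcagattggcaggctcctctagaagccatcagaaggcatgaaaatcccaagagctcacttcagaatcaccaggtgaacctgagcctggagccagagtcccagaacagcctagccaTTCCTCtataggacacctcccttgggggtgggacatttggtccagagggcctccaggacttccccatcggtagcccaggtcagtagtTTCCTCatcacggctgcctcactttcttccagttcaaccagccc
Ccl3, chr11:83649329-83649628, minus strand: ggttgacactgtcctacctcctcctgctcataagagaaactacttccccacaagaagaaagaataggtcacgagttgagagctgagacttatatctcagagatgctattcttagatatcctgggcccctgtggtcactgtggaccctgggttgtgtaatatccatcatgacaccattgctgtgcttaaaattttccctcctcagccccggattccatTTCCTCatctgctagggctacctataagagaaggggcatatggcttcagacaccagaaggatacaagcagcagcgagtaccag

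The promoter of Retnlg held 1 match to the C/EBP form and none to GAGGAA, that of Cxcr2 held 2 matches to GAGGAA, and that of Ccl3 held 1. Of the 10 genes of the rule, 7 had a promoter in the table, and the others are Ccl4, Wfdc21 and Il23a. Among these 7 promoters, GAGGAA was found in 4, TTGCNNAA in 2, the AP-1 form TGANTCA in 0 and an NF-kB motif in 1. Over 32851 promoters of the same length, the shares with a match were 28.3% for GAGGAA, 10.8% for TTGCNNAA, 7.81% for TGANTCA and 4.51% for the NF-kB motif. No match overlapped another of the motifs in the sequences printed above. These matches describe letters only.

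The members of day 1 had 2244 CPM of Retnlg (2131 to 2361), against 351 CPM in the other neutrophils and 6.15 CPM in the remaining kept cells. Retnlg was uneven within the members, with a median of 1 UMI per cell and a highest value of 162. The 10 members with most held 47.4% of its UMIs, and 56.7% of the members (50.2 to 63.1) had any. Cxcr2 was spread more evenly over the members, at a level of 779 CPM (713 to 850) against 439 CPM in the other neutrophils. The median was 2 UMIs per member and the highest value 8, and 83.6% of the members (78.3 to 88.1) had any. For Wfdc21 and Pglyrp1 the levels in members were 1491 CPM (1399 to 1587) and 778 CPM (712 to 848), against 585 and 387 CPM in the other neutrophils.

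After each cell was thinned to 1000 UMIs, 47.5% of the members and 19.2% of the other neutrophils of day 1 had a UMI of Retnlg, where stromal cells of that library had 0%. For Cxcr2 the thinned shares were 60.5% in members, 35.5% in the other neutrophils and 0.401% in stromal cells. Both genes were thus also detected in a part of the cells that the rule placed on the other side. On that side, Ccl3 stood at 1224 CPM in members against 9564 CPM in the other neutrophils, and Ccl4 at 535 against 8884 CPM. Ccl3 was not absent from the members, of which 68.9% had a UMI. Il23a and Gpr84 were at 84.9 and 80.4 CPM in members, and at 392 and 245 CPM in the other neutrophils. The genes that chose the neutrophils, S100a8 and S100a9, were at 55065 and 53805 CPM in members, against 35599 and 37380 CPM in the other neutrophils.

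Most members carried several of the genes together. UMIs of all 4 member-side genes were present in 74 members of day 1, of 3 genes in 76, of 2 genes in 66 and of a single gene in 22. No UMI of the other side was found in 53 members of day 1, or 22.3%. The balance had no gap at the threshold, as the plot of both sums per cell shows. The member side led by 1 or 2 UMIs in 51 members of day 1, or 21.4%, and by 10 or more in 57, while 38 neutrophils tied and 112 tied or lay behind by 1 or 2. Just inside the threshold, the 51 members had 1625 CPM of Tnf and 1403 CPM of Ccrl2. Just outside, the 112 neutrophils had 2559 CPM of Tnf and 2387 CPM of Ccrl2. At the other threshold, S100a8 and S100a9 held from 2.0% to 2.5% of the UMIs in 7 members of day 1 and 5 of day 3. A further 9 and 4 cells with the member side ahead lay between 1.5% and 2.0% and were not neutrophils by the rule.

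**Figure D1:**
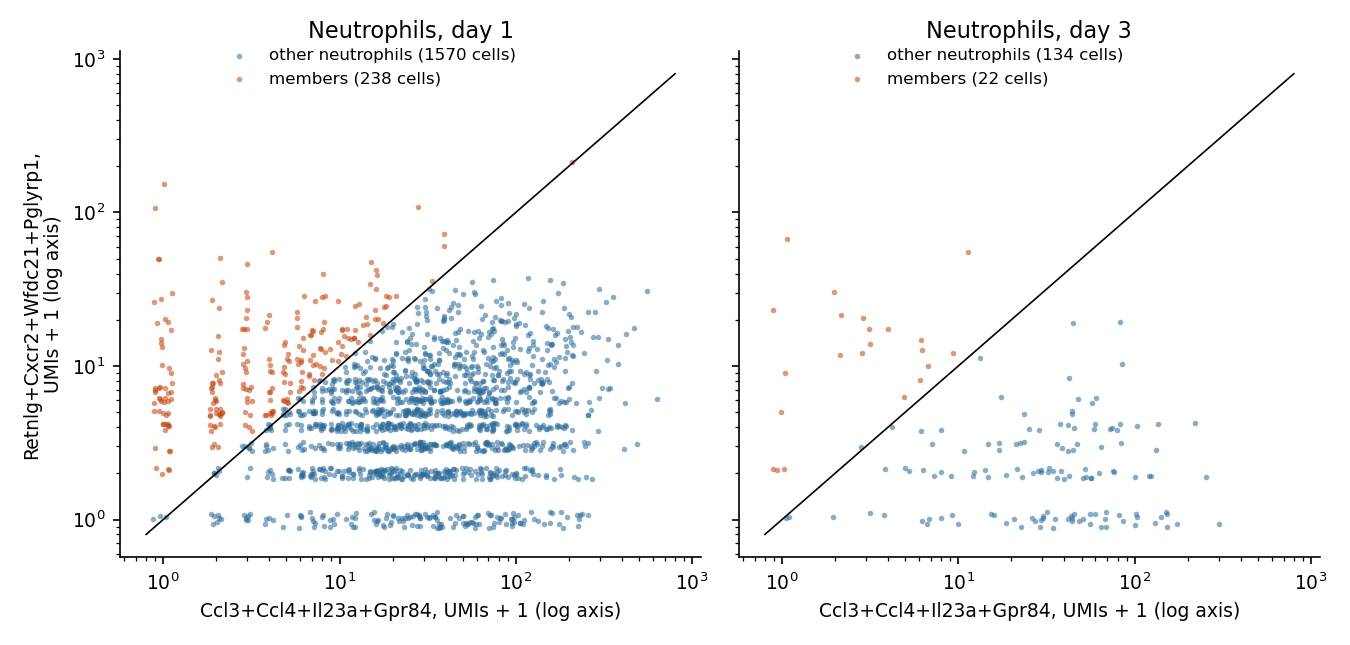
Each point is a neutrophil, with its UMIs of Ccl3, Ccl4, Il23a and Gpr84 plus 1 on the horizontal log axis and its UMIs of Retnlg, Cxcr2, Wfdc21 and Pglyrp1 plus 1 on the vertical log axis, slightly jittered. The 238 members of day 1 and the 22 of day 3 lie above the line of equality by the rule, and on day 1 the cells run across that line without a gap, with 51 members ahead by 1 or 2 UMIs.

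Genes of neutrophil identity that the rule did not name were carried by the members of day 1 as by the other neutrophils. A UMI of Hdc was found in 228 of the 238 members, or 95.8%, and in 1503 of the 1570 other neutrophils, or 95.7%. A UMI of Hdc, of the decoy receptor Il1r2 or of Csf3r, the receptor for granulocyte colony-stimulating factor, was found in 236 members. Of these identity genes, 14 were abundant enough to compare, and none differed 2-fold or more between members and other neutrophils, with a median log2 ratio of -0.02 and a range from -0.70 to 0.35. Csf3r was at 1225 CPM (1142 to 1313) in members and 1174 CPM in the other neutrophils. Hdc was at 2964 CPM (2834 to 3099) and 3368 CPM, and its log2 ratio of -0.18 [-0.25 to -0.12] became 0.00 in cells of at most 5000 UMIs. G0s2, an inhibitor of lipolysis, was at 5404 and 5382 CPM. The lowest ratio among these genes belonged to Acod1, the itaconate-forming enzyme, at 1768 against 2877 CPM. The highest belonged to Hp, encoding haptoglobin, and Slpi, a protease inhibitor, each with a log2 ratio of 0.35.

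Against the remaining kept cells of day 1, 1254 of 10721 genes were at least 2-fold higher in members (11.7%) and 4839 at least 2-fold lower (45.1%), with a median log2 ratio over all genes of -0.80. All 14 identity genes tested were higher, with a median log2 ratio of 4.85 and a range from 1.89 to 6.74. Stfa2l1, a cysteine protease inhibitor of the stefin family, had the highest ratio of these, at 429 CPM in members and 4.0 CPM in the remaining cells. Mmp9, the gelatinase of neutrophil granules, had a log2 ratio of 5.11, Hdc of 5.09, Csf3r of 4.87 and Il1r2 of 4.83. Of 12 genes tested from the list of gelatinase granules and secretory vesicles, 8 were higher, as were 15 of 20 receptors, of which 2 were lower. Genes of other myeloid cells were mostly lower, with 9 of 10 macrophage genes, 5 of 8 monocyte genes and 6 of 7 dendritic cell genes at least 2-fold lower and none higher. All 7 fibroblast genes tested were lower. The cytokines Il10 and Il6 had no UMI in the members, which allows up to 4.55 CPM at 3 counts, and had 6555 and 3625 UMIs in the remaining kept cells. The plot of levels by group of cells shows the members beside the other neutrophils for the identity genes and apart from them for the cytokines.

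**Figure D2:**
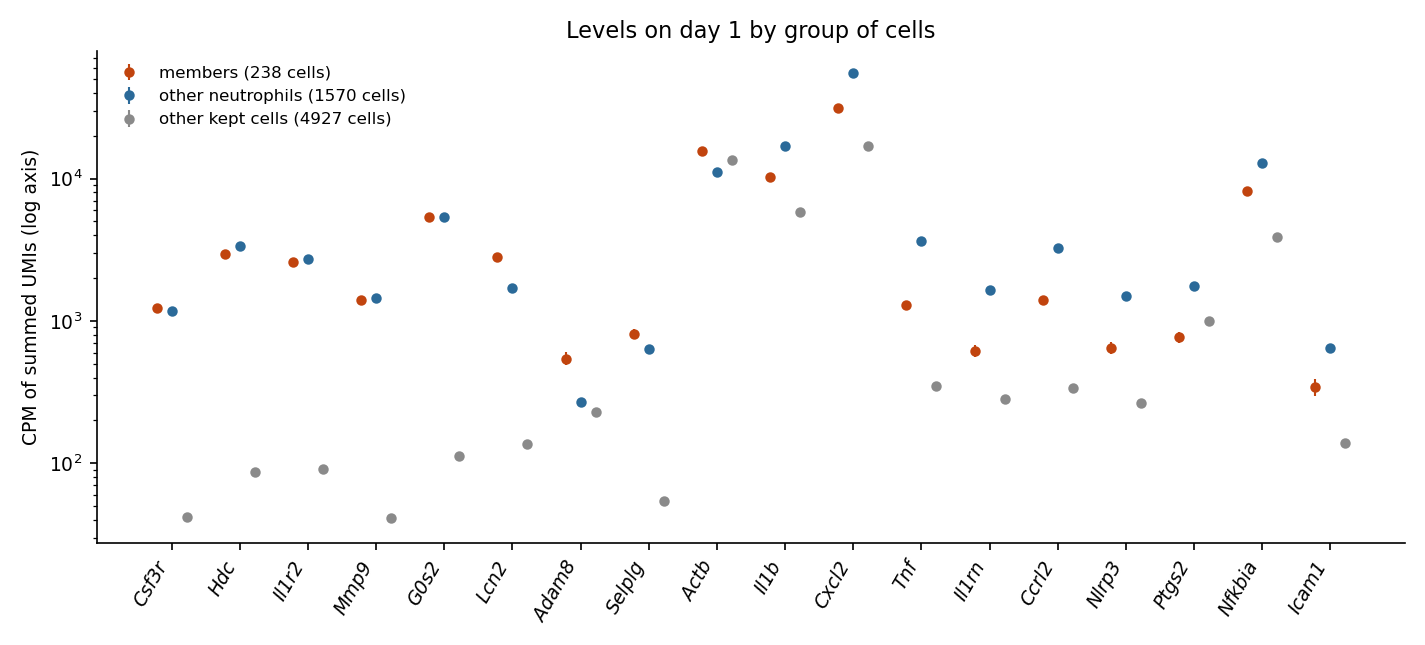
CPM of 18 genes on a log axis in the 238 members, the 1570 other neutrophils and the 4927 remaining kept cells of day 1, with exact Poisson 95% intervals, which are mostly smaller than the points. Csf3r, Hdc, Il1r2, Mmp9 and G0s2 lie close together in both neutrophil groups (1225 and 1174 CPM for Csf3r) and above the remaining cells, whereas Tnf lies lower in members (1290 CPM) than in the other neutrophils (3634 CPM).

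Markers of monocytes, macrophages and fibroblasts were concentrated in the deep members of day 1. The deepest member, with 35287 UMIs, held 38 UMIs of Hdc and 82 of Retnlg, and also 66 of C1qa, 55 of C1qb and 108 of Pf4, genes of macrophages or platelets. The next, with 30331 UMIs, held 128 UMIs of the fibroblast gene Dcn, 169 of Ccn2, 299 of the metallothionein Mt2 and 5 of Hdc. A further 7 members with 11080 to 15053 UMIs had 4 to 12 UMIs of Ccr2 and 3 to 25 of Plac8, genes of inflammatory monocytes, at most 3 of Hdc, and none of Retnlg. The remaining 3 deep members, with 5048 to 9150 UMIs, had 8 to 32 UMIs of Hdc and none of Ccr2 or Plac8, and 1 of them held the highest Retnlg count, 162.

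With the 12 deep members left out, the summed level of 4 lists of markers was lower, and close to that in the other neutrophils of the same depth for most. Monocyte markers summed to 1550 CPM in all members and 220 CPM in the 226 of at most 5000 UMIs, where Ccr2, F13a1 and Ms4a4c were at 0, against 209 CPM in other neutrophils of at most 5000 UMIs. Macrophage markers summed to 741 and 258 CPM, against 214 CPM in those neutrophils, with Ms4a7 at 0 and 0 to 5 UMIs per member. Fibroblast markers summed to 282 and 33.0 CPM, against 39.8 CPM. Dendritic cell markers summed to 111 and 107 CPM, against 158 CPM, with Cd209a, Xcr1, Clec9a and Ccr7 at 0. All 226 members had a UMI of Hdc, Il1r2 or Csf3r, and 8 had one of Ccr2 or Plac8. Endothelial and T or NK cell markers gave 1 UMI each, erythroid and satellite cell markers 0, and of the B cell markers only Ighm was found, with 13 UMIs. Markers of mast cells, basophils and eosinophils summed to 80.4 CPM, all of it Siglecf in 31 members, against 72.7 CPM in other neutrophils of that depth. Myofiber markers were found in 9 members, at 18.5 against 16.9 CPM. The share of RNA from ambient barcodes, estimated from fibroblast collagens and Dcn, was 2.15% in these 226 members and 2.11% in other neutrophils of that depth, and 22.1% in all 238 because of the cell with 128 UMIs of Dcn.

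Of 3734 genes with at least 100 UMIs in all neutrophils of day 1, 81 were at least 2-fold higher in members than in the other neutrophils (2.17%) and 77 at least 2-fold lower (2.06%), apart from the genes of the rule and mitochondrial and ribosomal protein genes. The median log2 ratio over all of these genes was 0.09. Several of the highest ratios came from single cells. All 169 UMIs of Ccn2, which had the highest log2 ratio, 6.32, lay in 1 member, as did 299 of 345 UMIs of Mt2, 128 of 134 of Dcn, 57 of 61 of Serpinb2 and 55 of 57 of Tm4sf1. Cyb5a had 29 of 49 UMIs in 1 member. Of the 10 genes with the highest ratios, Mgst1, a glutathione transferase of membranes, had 78 UMIs in 31 members and a log2 ratio of 2.22, and Mmp8, neutrophil collagenase, had 101 UMIs in 37 members and 1.80. Smpdl3a, a phosphodiesterase, had 91 UMIs in 27 members, 16 of them in 1 cell, and a ratio of 1.89 that became 0.69 in cells of at most 5000 UMIs. Tmsb10, an actin-binding thymosin, had a log2 ratio of 1.79 that became 0.02 in cells of at most 5000 UMIs.

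At the low end, the class II genes H2-Ab1, H2-Aa and H2-Eb1, which present antigen, had log2 ratios of -4.22, -3.00 and -2.59, with 3 UMIs of H2-Ab1 in the members and 444 in the other neutrophils, 121 of them in 1 cell. In cells of at most 5000 UMIs these ratios were -0.76, -0.10 and -0.90, none of them 2-fold. H2-Ab1 and H2-Aa had fewer UMIs there than the minimum of 100. H2-Aa was at 0.40 where S100a8 and S100a9 held at least 5%. Gdf15, a stress-induced cytokine, had 1 UMI in members against 186 and a log2 ratio of -4.19. It remained among the lowest in cells of at most 5000 UMIs, at -3.75. The other genes of the lowest 10 were Ppbp (-3.55), Fabp4 (-2.93), Mgp (-2.79), Mrc1 (-2.57), Cebpa (-2.56) and Ralgds (-2.54). In cells of at most 5000 UMIs Ppbp and Mgp turned to 0.59 and 0.87, Mrc1 was at -0.57, Fabp4 at -1.33 and Cebpa at -3.83, all with too few UMIs there to be compared by the minimum of 100. Most of these are genes of macrophages, platelets or stromal cells and were sparse in members, with 7 UMIs of Mrc1 and 2 of Cebpa. In cells of at most 5000 UMIs, 41 of 2912 genes were at least 2-fold higher, led by Mgst1 at 1.89. Ralgds, an exchange factor for Ral, was at -2.38 there.

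The granule genes are given here in the order in which neutrophils form their granules. Azurophil granule genes, made in promyelocytes, were nearly absent from the members, with 0 UMIs of Mpo and Ctsg and 1 of Elane, and only Cd63 could be compared, at 610 against 951 CPM. Of 9 genes of specific granules tested, 2 were at least 2-fold higher in members and none lower, and 6 had a ratio above 0, with a median of 0.60. Lcn2, the iron-sequestering lipocalin, was at 2807 CPM (2680 to 2938) in members and 1691 CPM in the other neutrophils. Its log2 ratio was 0.73 [0.66 to 0.80] and 0.63 in cells of at most 5000 UMIs. Lyz2, encoding lysozyme, had a ratio of 1.30 [1.24 to 1.36] that became 0.48 without the deep cells, and Chil3, a chitinase-like protein also made by monocytes, had 0.60 and then 0.02. Anxa1, an anti-inflammatory annexin, was at 349 against 168 CPM, with log2 ratios of 1.06 [0.84 to 1.27] and 0.97. Without the deep cells no gene of the specific granule list reached 2-fold, and the median was 0.11.

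Of 13 genes tested from the list of gelatinase granules and secretory vesicles, Mmp8 and Adam8 were at least 2-fold higher, none was lower and the median was 0.09. Mmp8 was at 153 against 43.9 CPM, with a log2 ratio of 1.80 [1.44 to 2.15] and 1.33 without the deep cells. Adam8, a membrane metalloprotease of leukocytes, was at 543 against 269 CPM, with 1.01 [0.84 to 1.18] and 1.24. Both kept their 2-fold difference in cells of at most 5000 UMIs. Mmp9, of the same list, was at 1412 CPM in members and 1449 CPM in the other neutrophils.

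Receptors and adhesion molecules differed little between members and other neutrophils, apart from Ccrl2. Of 19 receptors tested, 8 had a ratio above 0 and 11 below, with a median of -0.02, and Ccrl2 was the only one to reach 2-fold. Ccrl2, an atypical chemokine-like receptor that binds chemerin, was at 1398 CPM in members and 3269 CPM in the other neutrophils, with a log2 ratio of -1.22 [-1.32 to -1.13] and -1.09 without the deep cells. Cxcr4, the receptor that holds neutrophils in marrow, was at 458 and 466 CPM, and the chemokine receptor Ccr1 at 1360 and 1374 CPM. The receptor for platelet-activating factor, Ptafr, had a log2 ratio of -0.77, and the tumour necrosis factor receptors Tnfrsf1a and Tnfrsf1b had 0.40 and -0.64. None of 9 adhesion genes reached 2-fold, and 6 were above 0, with a median of 0.16. Selplg, the ligand of P-selectin, had 0.35 [0.22 to 0.49] and 0.48, while Icam1, an integrin ligand induced by NF-kB, had -0.92 [-1.12 to -0.73] and -0.77.

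Cytokine and chemokine genes that the rule did not name lay mostly lower in members. Of 17 tested, 5 were at least 2-fold lower, none was higher, 14 had a ratio below 0 and the median was -0.52. Tnf was at 1290 CPM (1205 to 1380) in members and 3634 CPM in the other neutrophils, with a log2 ratio of -1.49 [-1.59 to -1.39] and -1.40 without the deep cells. The neutrophil chemoattractant Cxcl1 had -1.61 [-1.86 to -1.37] and -1.80, the interleukin-1 receptor antagonist Il1rn -1.43 [-1.58 to -1.28] and -1.32, and Il1a -1.26 [-1.45 to -1.08] and -1.22. Tnfsf14, the fifth of these genes, had -1.07 and -0.76. Cytokines remained a large part of the members' RNA nonetheless. Cxcl2, another neutrophil chemoattractant, was at 31094 CPM against 54868 CPM, and Il1b at 10302 CPM (10058 to 10550) against 16985 CPM, with log2 ratios of -0.82 and -0.72. Ccl6 was among the 3 genes above 0, at 1888 against 1583 CPM.

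All 15 feedback genes of NF-kB tested had a ratio below 0 with intervals below 0, from -1.01 to -0.35 with a median of -0.71, though 1 reached 2-fold. This was Tnfaip3, encoding the ubiquitin-editing inhibitor A20, at 604 against 1213 CPM, with -1.01 [-1.16 to -0.86]. Nfkbia, encoding the inhibitor that holds NF-kB in the cytoplasm, was at 8231 against 12895 CPM, with -0.65 [-0.69 to -0.61] and -0.53 without the deep cells. In cells of at most 5000 UMIs all 15 remained below 0, 14 of them with their interval, and none reached 2-fold.

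Survival and lipid mediator genes included several below 0. Of 14 survival genes tested, Bcl2a1a, Bcl2a1d and Gadd45b were at least 2-fold lower, 10 were below 0 and the median was -0.53. Without the deep cells Bcl2a1a alone of 12 kept a 2-fold difference, at -1.10, with Bcl2a1d at -0.94 and a median of -0.41. Gadd45b, a stress-response gene, was at 1371 against 2854 CPM, with -1.06 [-1.16 to -0.96] and -0.92. The Bcl2a1 genes are near-identical copies that can share reads, so that the split between them is uncertain. Mcl1, on which neutrophil survival depends, was at 3136 against 3979 CPM. Ptgs2, the inducible cyclooxygenase, was the 1 of 5 lipid mediator genes to reach 2-fold, at 769 against 1770 CPM, while Alox5ap, which feeds leukotriene synthesis, was at 1839 against 1559 CPM. Among 17 lectin and pattern receptor genes tested, Nlrp3, the inflammasome sensor, was the only one lower 2-fold or more, at 646 against 1497 CPM, and Clec4e, a receptor for mycobacterial glycolipid, was at 3180 against 4745 CPM. Tyrobp, an adaptor of many of these receptors, was at 4781 and 4451 CPM.

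Of 18 transcription factors tested, Cebpa and Atf3 were at least 2-fold lower, and the median was -0.16. Atf3, an immediate stress factor, was at 72.8 against 163 CPM, and Cebpb, the C/EBP factor of emergency granulopoiesis, at 8447 against 9361 CPM. Of 12 interferon-induced genes none reached 2-fold, 10 had a ratio above 0, 6 of them with their interval, and the median was 0.17 against 0.09 over all genes. Ifitm6, a transmembrane antiviral gene, was at 274 against 167 CPM, with 0.72 [0.48 to 0.96] and 0.69 without the deep cells. Irf7, a factor that amplifies interferon, had 0.57 and then 1.06, the only one past 2-fold without the deep cells. Of 21 glycolysis and hypoxia genes, none reached 2-fold and 14 were above 0, with a median of 0.22, and Gapdh was at 1283 against 918 CPM. Hilpda, a hypoxia-induced lipid droplet protein, went the other way, at 247 against 475 CPM. Of 16 genes of the actin cytoskeleton, only Tmsb10 reached 2-fold, in all cells but not without the deep ones, and 13 were above 0, with a median of 0.17. Actb was at 15718 against 11195 CPM, with 0.49 [0.46 to 0.52] in all cells and 0.49 without the deep cells. The 7 genes of the NADPH oxidase had a median of 0.08 and the 3 proliferation genes tested 0.41, with none at 2-fold and 0 UMIs of Mki67 in the members.

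**Figure D3:**
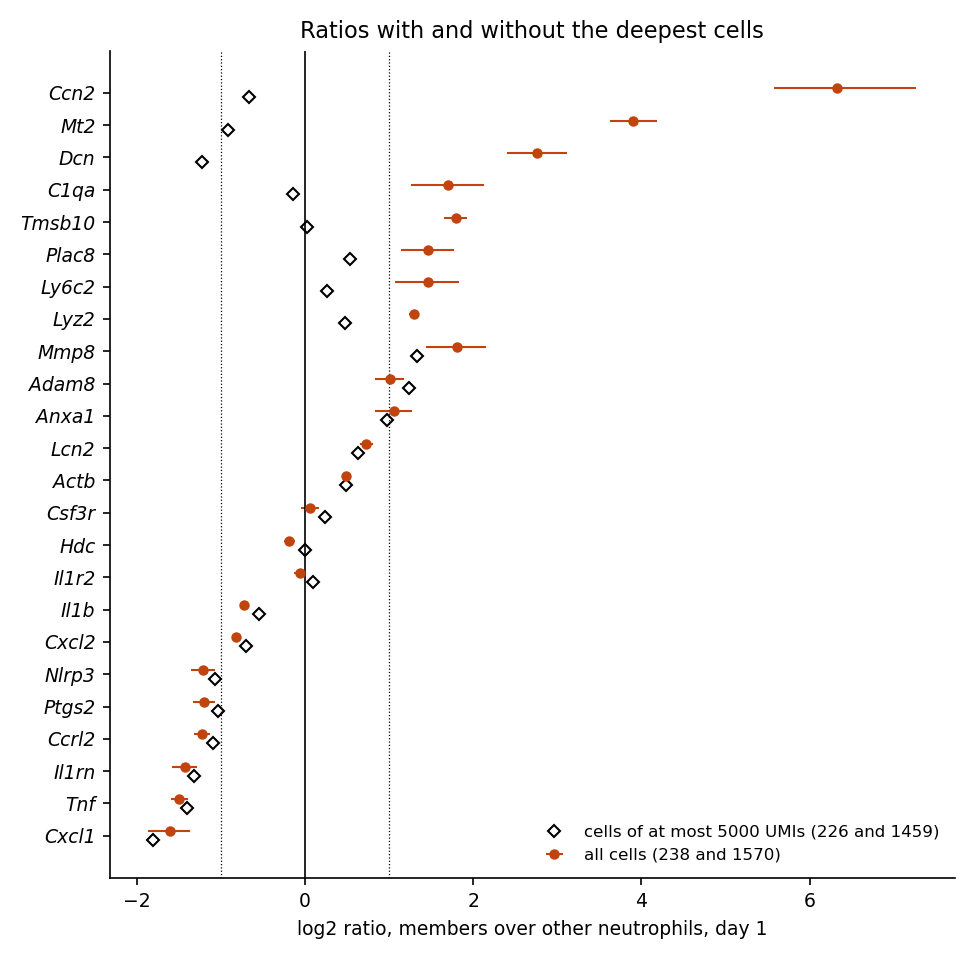
Log2 ratio of CPM in members over other neutrophils on day 1 for selected genes of the lists and of the highest ratios, in all cells (238 and 1570, points with 95% intervals) and in cells of at most 5000 UMIs (226 and 1459, open diamonds), with dotted lines at 2-fold. The ratio of Tnf is -1.49 in all cells and -1.40 without the deep cells, whereas that of Lyz2 goes from 1.30 to 0.48 and that of Tmsb10 from 1.79 to 0.02.

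Several genes varied with the balance of the rule among all neutrophils of day 1. Neutrophils were placed in 5 bins by the member-side share of their UMIs of the 8 balance genes, with 499 cells in the bin of 0 to 5% and 95 in that of 80 to 100%, and the CPM of single cells was averaged within a bin. Median depth was 2265 UMIs in the first and 2013 in the last bin. Mean Tnf was 5302, 3502, 2554, 1749 and 1071 CPM from the first bin to the last, and mean Ccrl2 went from 4752 to 1205 CPM, each lower at every step. Mean Nlrp3 went from 1757 to 568 CPM, Icam1 from 834 to 255 CPM and Cxcl2 from 66655 to 31942 CPM. In the other direction, mean Adam8 went from 190 to 650 CPM, Selplg from 588 to 1029 CPM and Actb from 9484 to 16015 CPM. The identity genes moved less, with Csf3r from 1230 to 1612 CPM, Hdc from 3507 to 3689 CPM and Mmp9 from 1509 to 1622 CPM. All of these cells come from 1 library and were placed by their own transcripts, so the series is a description.

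**Figure D4:**
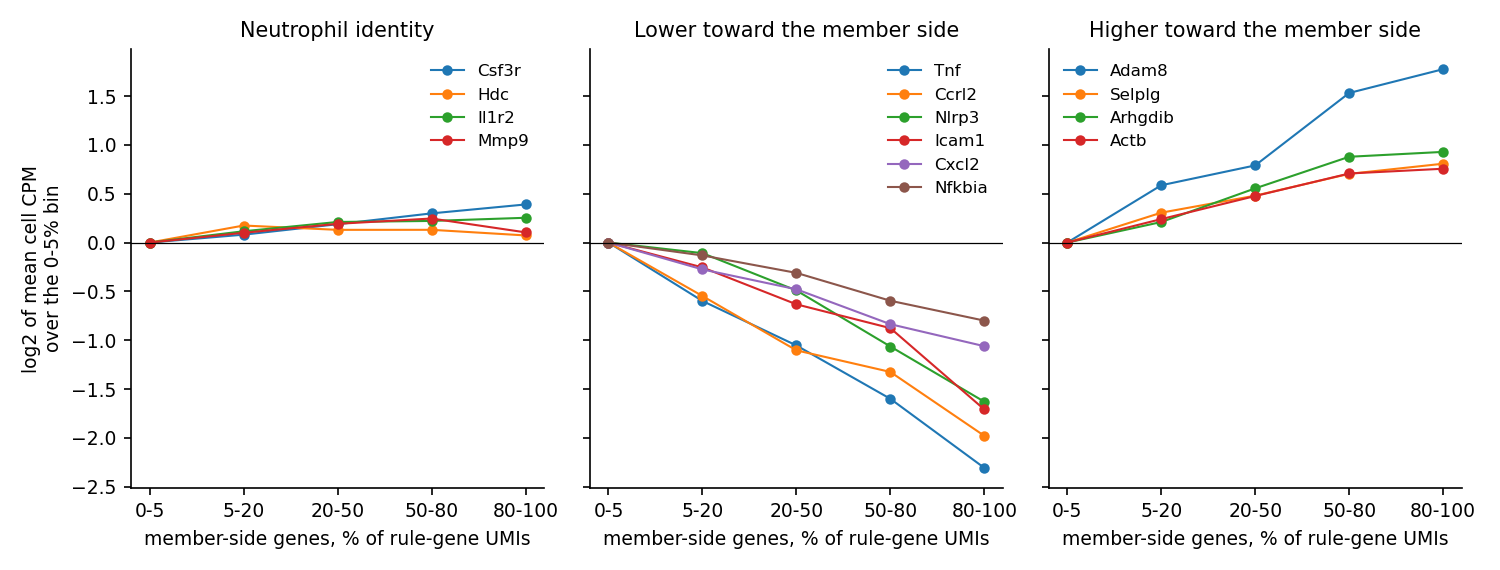
Mean CPM per cell in each of 5 bins of the member-side share of balance-gene UMIs on day 1, as log2 of its ratio to the bin of 0 to 5%, for identity genes (left), genes lower in members (middle) and genes higher in members (right). Tnf goes from 5302 to 1071 CPM and Adam8 from 190 to 650 CPM across the bins, with the widest step of Adam8 (328 to 549 CPM) across a share of 50%, while Hdc goes from 3507 to 3689 CPM.

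The 22 members of day 3 were of 2 kinds, told apart after their values were seen. A set of 7 had at least 3 UMIs of Hdc, a median of 1961 UMIs (range 1395 to 2505), 0.612% mitochondrial UMIs and 13.6% of UMIs from S100a8 and S100a9. All 7 had a UMI of Csf3r and none had a UMI of Ccr2 or Plac8. They held all 107 UMIs of Retnlg, 98 of them in 2 cells, and all 8 UMIs of Cxcr2 found in members of day 3. The other 15 had a median of 8388 UMIs (range 1742 to 13057), 3.77% mitochondrial UMIs and 3.02% from S100a8 and S100a9, and 0 UMIs of Retnlg and Cxcr2. They met the rule through Wfdc21, present in all 15 with 165 UMIs, and through Pglyrp1. Ccr2 was found in 14 of them, Ly6c2 in 14 and Plac8 in 13, while the 15 cells together held 2 UMIs of Hdc. The chitinase-like gene Chil3 was at 4009 CPM in these 15 cells. The plot of Hdc against Ccr2 and Plac8 shows both kinds.

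**Figure D5:**
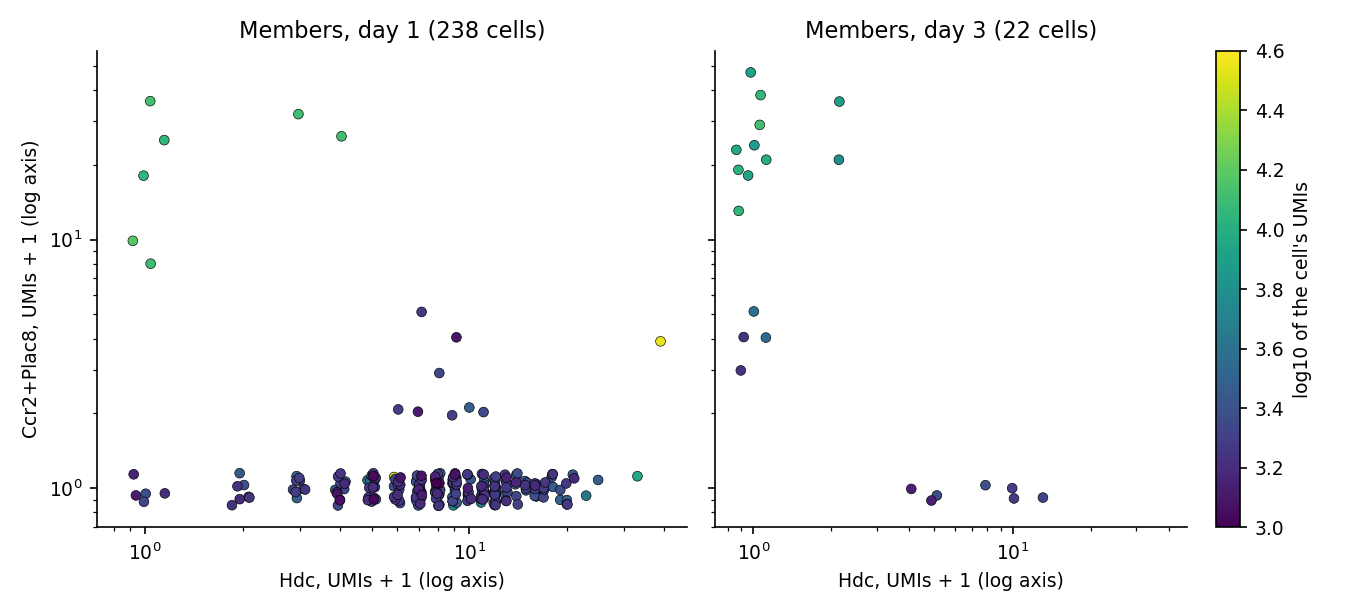
Each point is a member, with its UMIs of Ccr2 and Plac8 plus 1 and its UMIs of Hdc plus 1 on log axes, slightly jittered and coloured by the log10 of its total UMIs, on day 1 (238 cells) and day 3 (22 cells). On day 1, 228 members have a UMI of Hdc and 16 have one of Ccr2 or Plac8, while on day 3 these numbers are 9 and 15.

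Between the days, 135 of 992 genes with at least 100 UMIs were at least 2-fold higher in members of day 3 than of day 1 (13.6%) and 262 at least 2-fold lower (26.4%), with a median log2 ratio of -0.24 over these genes. The makeup of the members moved with the day. Of 14 identity genes tested, 12 were at least 2-fold lower on day 3, with a median of -2.40, and 5 of 7 monocyte genes were at least 2-fold higher, with a median of 2.09. Summed monocyte markers were at 5539 CPM in members of day 3, present in 18 of 22 cells, against 1178 CPM in the other neutrophils of that day. Ccr2 was at 647 CPM on day 3 and 68.2 CPM on day 1, and Plac8 at 1613 and 182 CPM. The highest log2 ratio was that of the heat shock gene Hspa1b, 3.39, at 623 against 59.1 CPM. Of 14 cytokine genes tested, 9 were at least 2-fold lower and 1 higher, with a median of -2.18. Of 12 NF-kB feedback genes 9 were lower, as were 9 of 10 survival genes. Il1a had 0 UMIs in the members of day 3, which allows up to 23.4 CPM at 3 counts, and 388 CPM on day 1. All these values of day 3 members are for the 22 cells together. Of these, 11 cells above 5000 UMIs held 80.9% of the UMIs, and all 11 had at least 3 UMIs of Ccr2 and Plac8. The part of the makeup in these differences was not tested.

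Among members with a UMI of Hdc and none of Ccr2 or Plac8, 217 on day 1 and 7 on day 3 (the same 7 as above), the differences of Csf3r and Il1r2 between the days were smaller. The cells of both days were chosen for a neutrophil gene and against monocyte genes, so levels of other neutrophil genes describe this choice. The 217 still include the member with 30331 UMIs and 128 of Dcn. Csf3r was at 1442 CPM on day 1 and 1470 CPM on day 3, with a log2 ratio of 0.06 [-0.69 to 0.66], where all members gave -2.52. For Il1r2 the log2 ratio was 0.19 [-0.28 to 0.59], where all members gave -2.75, but 2 of the 7 cells held 20 and 16 of its 47 UMIs and 2 held none. Among the cytokines, Cxcl2 was at 34587 and 34240 CPM, with a ratio of -0.01 [-0.15 to 0.12], and Il1b at 11829 and 14328 CPM, with 0.28 [0.06 to 0.48]. Other genes kept their direction in these cells. G0s2 was at 6597 CPM on day 1 and 2425 CPM on day 3, with -1.42 [-1.99 to -0.95], and Nfkbia at 9335 and 3674 CPM, with -1.33 [-1.78 to -0.94]. Tnf was at 1536 and 514 CPM, the latter from 7 UMIs, with -1.48 [-2.90 to -0.53]. The interferon-induced Ifitm3 was at 674 and 3086 CPM, with 2.21 [1.70 to 2.66], and Lyz2 at 909 and 3306 CPM, with 1.88 [1.39 to 2.31]. The ambient share of neutrophils of at most 5000 UMIs was estimated at 2.11% on day 1 and 5.08% on day 3. The values of this paragraph were not corrected for it. Chil3, whose ratio over all members was 0.62, was at 1330 CPM on day 1 and at 220 CPM on day 3, the latter from 3 UMIs in 1 cell.

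The same cells were set against the other neutrophils of day 3 selected alike, 112 cells. Tnf was at 514 CPM in the 7 members and 3596 CPM in these, with a log2 ratio of -2.71 [-4.13 to -1.75], and Ccrl2 at 661 against 3190 CPM, with -2.19 [-3.41 to -1.34]. On day 1 the ratios in cells selected alike were -1.41 for Tnf and -1.19 for Ccrl2. Adam8 was at 1102 against 190 CPM, with 2.56 [1.56 to 3.44], where day 1 gave 1.15. Actb had 0.97 [0.72 to 1.2] on day 3 and 0.46 on day 1. The signs were those of day 1 for these 4 genes. The values of day 3 rest on 7 cells of 1 library, and whether the ratios differ between the days was not tested.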

How the data were processed

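Single-cell RNA sequencing (10x Genomics 3′ capture) was performed on 1 library per day. What the authors deposited are UMI counts as whole numbers for every gene and every possible barcode, neither normalized nor limited to cells. The submitters' processing notes name Cell Ranger 5.0.0 and the mouse build mm10, while the file headers name version 4 of that tool. Counts were read for 32285 genes. Cells were taken by the rule given above. The members and all gene lists were chosen with earlier results of these data known.

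UMIs were summed over the cells of a group. A gene was compared when it had at least 100 UMIs over both groups and was called at a 2-fold ratio. Intervals are at 95%, log2 ratios had 0.5 added to each count, and with 1 library per day no test was run. Named are the genes of the rule, genes of 17 function lists (those with most UMIs or the largest ratios) and of 11 lists of other cell types, and the 10 genes with the highest and lowest ratios. Cells were thinned to 1000 UMIs where shares of cells are compared. Ambient RNA was read from barcodes of at most 100 UMIs. No barcodes were removed as doublets. The automatic threshold of Scrublet marked 2 barcodes of day 1 and 0 of day 3, and whether it missed doublets was not tested. As an alternative, the barcodes with the highest Scrublet scores, 434 and 353, were removed. Their number was set by an assumed doublet rate, and 2 members of day 1 and 1 of day 3 were among them.

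Other alternatives changed the call of cells, the mitochondrial, UMI and S100a8 and S100a9 limits, the margin of the rule, the gene filter, the scaling and the subtraction of ambient RNA. The limit of 5000 UMIs, the requirement of a UMI of Hdc and none of Ccr2 or Plac8, and the split of day 3 members by Hdc were chosen after seeing the data. The comparison of members with other neutrophils of day 1 was tested on simulated counts of 3734 genes with known ratios. These counts were Poisson draws of group sums, the model the intervals assume, with no spread between cells or mice. The outcome thus checks the calculation and not how well the intervals hold in these data. The true ratio lay inside 95.8% of the intervals, and for the 200 genes given a change, 82.8% of the intervals at 2-fold and 100% at 4-fold left out 0 in the true direction. The analysis used Python 3.11.15, numpy 2.4.6, scipy 1.17.1, pandas 2.3.3, scanpy 1.11.5 and matplotlib 3.10.9. Some genes of the lists are not reported here.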

Additional observations from a re-analysis of the deposited data

Results flagged for a closer look

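Barcodes outside the kept cells also met the balance and the S100a8 and S100a9 limit. Among barcodes of 300 or more and fewer than 1000 UMIs that were not called as cells, 2 of 61 on day 1 met both, or 3.28% (Clopper-Pearson 95% interval 0.400 to 11.3), and 1 of 246 on day 3, or 0.407% (0.0103 to 2.24). Among called barcodes above the mitochondrial limit, 7 of 277 on day 1 and 4 of 1804 on day 3 met both. No comparison of the report uses these barcodes. There were no groups of 4 to 10 samples in which a sample could stand apart.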

How the results depend on the processing

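No paired analysis was possible because each day had 1 library and the only replicate number they share is 1. The share of members among kept cells of day 1 was 3.53%, and 0.29% when cells had to hold 10% of the 99th percentile of UMIs, 2.34% at a minimum of 2000 UMIs, 2.88% with S100a8 and S100a9 at 5%, 2.78% with a margin of 3 UMIs and 4.08% after subtracting ambient RNA. Among neutrophils of day 1 it was 13.2%, and 8.18% with that call of cells, 15.7% at 5%, 10.3% with the margin and 15.2% after the subtraction. On day 3 the share of kept cells was 0.475%, and 0.248% with that call, 0.778% with S100a8 and S100a9 at 1%, 0.173% at 5% and 0.151% with a UMI of Hdc and none of Ccr2 or Plac8. Among neutrophils of day 3 it was 14.1%, and 83.3% with that call (10 of 12 cells), 40.0% at 2000 UMIs (16 of 40) and 5.88% with the Hdc requirement.

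The genes at least 2-fold higher in members than in other neutrophils of day 1 numbered 81, and 31 with S100a8 and S100a9 at 5%. They numbered 125 with the highest Scrublet scores removed, and 561 and 10 at minimums of 20 and 500 UMIs. Without cells carrying C1q, Adgre1 or Fcgr1 there were 45, and in cells of at most 5000 UMIs 41. Those at least 2-fold lower numbered 77, and 41 at 5%, 384 and 31 at those minimums. Against the remaining kept cells, 1254 genes were higher, and 2771 after centring on the median gene, which moved log2 ratios by 0.80, 2163 at 20 and 820 at 500 UMIs, while 4839 were lower, and 2501 after centring. Between the days, 135 genes were higher on day 3, and 53 at 5%, 768 and 15 at those minimums, 28 without C1q cells, 32 at most 5000 UMIs and 48 with the Hdc requirement. There were 262 lower, and 589 and 63 at those minimums, 103 without C1q cells, 160 at most 5000 UMIs and 101 with the requirement. The number of genes compared changed with the minimum of UMIs and with the choice of cells, so these counts are not shares. Between the days it was 992, and 605 at 5%, 575 without C1q cells, 626 at most 5000 UMIs and 651 with the requirement. For members over other neutrophils on day 1 it was 3734, with 2507 at 5% and 3260 with the highest Scrublet scores removed. Without C1q cells it was 2916, and in cells of at most 5000 UMIs 2912. The cause of the differences was not tested.

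Of the values for single genes, 1388 stayed within the interval of the reported value, 548 left it, and 44 whose reported ratio was 2-fold or more turned their sign. The 1388 include 156 values at the minimum of 20 UMIs and 108 at that of 500. These could not change, because the minimum only sets which genes are compared. For members over other neutrophils on day 1, the turned log2 ratios at 5% were Dcn -0.91, Ppbp 0.79, H2-Aa 0.40, Mgp 0.48, Mt2 -0.70 and Tm4sf1 -2.73. With the highest Scrublet scores removed they were C1qa -2.36, Mgp 0.59 and Serpinb2 -0.24, and with means over cells Tm4sf1 -0.12. Without C1q cells they were Dcn -2.27, Ppbp 1.19, H2-Aa 0.10, Ccn2 -1.62, Mt2 -1.57, Serpinb2 -0.53 and Tm4sf1 -3.57. In cells of at most 5000 UMIs they were C1qa -0.14, Dcn -1.22, Ppbp 0.59, Mgp 0.87, Ccn2 -0.66, Mt2 -0.92, Serpinb2 -0.06 and Tm4sf1 -2.25, and with the Hdc requirement C1qa -0.49 and Mgp 0.86. For day 3 over day 1 they were Ccn2 3.49, Dcn 0.69 and Mt2 1.62 at 5%, and Cybb -1.51, Ccn2 4.72, Dcn 1.91, Prg4 0.81 and Mt2 2.84 without C1q cells. In cells of at most 5000 UMIs they were Cybb -0.14, Ccn2 4.31, Dcn 1.5, Prg4 0.40 and Mt2 2.43, and with the Hdc requirement Csf3r 0.06, Il1r2 0.19, Il1b 0.28 and Cybb -1.51. Positive values for Ccn2, Dcn, Prg4 and Mt2 between the days come from genes with few or 0 UMIs on both days under these settings and depend on the 0.5 added.

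Depth limits the rest: at a median near 2000 UMIs a member can lack a UMI of a gene it transcribes, and the 7 members of day 3 with Hdc hold so few UMIs that a gene at 514 CPM there rests on 7 UMIs. No spread between mice can be given.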
